A study of Mus musculus with 24 samples.

Results

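The effect of interleukin-33 (IL-33) on alveolar macrophages was measured in the absence of IL-13, in 2 backgrounds. In the first, cells given recombinant IL-33 (rIL-33) were compared with Untreated cells. In the second, cells given rIL-33/rIL-17A were compared with cells given rIL-17A. All cells were primary alveolar macrophages of wild-type BALB/cJ mice, without any genetic change, and RNA was taken 20 h after stimulation. Each group had 3 libraries, so the 2 comparisons rested on 12 of the 24 libraries of the study and shared none of them. The other 12 libraries also received rIL-13. They enter the filter on low values and the estimate of spread behind all tests, and are otherwise used below only to set the effect beside that seen with IL-13. Of 17017 genes in the deposited tables, the 13215 with at least 1 TPM (a level scaled to gene length and to the library's total) in at least 3 of the 24 libraries were tested. The labels do not state the cytokine doses, the number of mice or whether libraries of the same group stem from separate cultures.

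IL-33 is a nuclear protein of epithelial, endothelial and stromal cells that is released when they are damaged. It binds the receptor ST2, encoded by Il1rl1, which pairs with the accessory protein encoded by Il1rap. The pair recruits MyD88 and IRAK kinases, and signalling through TRAF6 and TAK1 then activates NF-kB and the p38, JNK and ERK kinases. Group 2 innate lymphoid cells and mast cells are its best known targets in the lung, and in macrophages it is known for strengthening the response to IL-13.

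The 12 libraries held 9.13 to 12.89 M reads as recovered from the TPM values, and 11940 to 12200 genes at 1 TPM or more. Markers of alveolar macrophages were present as labelled: all 10 listed markers were in the tables, among them Itgax, which encodes CD11c, and they summed to 3370 to 3670 TPM. Of the markers of other cells, those of T, B and NK cells (2 of 9 in the tables) summed to 0.328 to 1.19 TPM, of dendritic cells (4 of 6) to 2.60 to 5.34 TPM, of endothelium (4 of 5) to 8.45 to 12.4 TPM and of epithelium (6 of 9) to 20.9 to 24 TPM. Larger sums rested on single genes that macrophages can also express: 1540 to 1710 TPM for monocytes and interstitial macrophages (5 of 7; Cd14), 168 to 195 TPM for group 2 innate lymphoid cells (4 of 9; Il7r) and 136 to 177 TPM for neutrophils (3 of 7; S100a8). No listed marker in the tables was at 0 in all 12 libraries. TPM was scaled by gene span with introns, so these sums compare libraries and not cell types. The markers of mast cells, basophils and eosinophils were not analysed here. In rIL-33 against Untreated libraries the ranges of each of these sums overlapped. In RNA of bulk samples, fewer cells of a type and less RNA per cell cannot be told apart.

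Several measures of the libraries moved with the second comparison. The rIL-33/rIL-17A libraries held 9.32 to 10.94 M reads and the rIL-17A libraries 11.16 to 12.89 M. The 10 most abundant genes took 5.97% to 6.26% of reads in rIL-33/rIL-17A libraries and 5.65% to 5.87% in rIL-17A libraries. The monocyte and interstitial macrophage markers summed to 1540 to 1580 TPM in rIL-33/rIL-17A libraries and 1620 to 1690 TPM in rIL-17A libraries, and the fibroblast markers (5 of 8 in the tables) to 6.51 to 6.89 TPM in rIL-33/rIL-17A libraries and 5.92 to 6.36 TPM in rIL-17A libraries. The other sums overlapped. On the first principal component of the 12 libraries, which held 14.8% of the variance, rIL-33/rIL-17A replicates 2 and 3 lay at one end (21.32 and 17.05) and rIL-17A replicate 2 and Untreated replicate 1 at the other (-24.11 and -25.08). Those same rIL-33/rIL-17A replicates and rIL-33 replicate 3 carry sample numbers of 30 or higher in their titles, out of the run of the others, and the labels do not say why. Among the libraries with IL-13, rIL-33/rIL-13/rIL-17A replicate 3 does too, so all libraries so numbered received IL-33. Without them 1 rIL-33/rIL-17A library and 2 rIL-33 libraries remain. The part of these differences in the results below was not tested beyond the values given without those libraries.

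Hardly any gene changed with IL-33 in either background. In rIL-33 against Untreated cells, limma called 0 of 13215 genes at an adjusted p under 0.05 (0%). At an unadjusted p under 0.05 it had 484 genes (3.66%), 193 higher and 291 lower, and voom on recovered reads also called 0. In rIL-33/rIL-17A against rIL-17A cells, 1 gene was called (0.00757%), beside 626 whose unadjusted p was under 0.05 (4.74%), and voom called 0. Averaged over both backgrounds, which sets 6 libraries with IL-33 against 6 without, limma called 0 genes (0%), beside 656 whose unadjusted p was under 0.05 (4.96%), and voom again called 0. The smallest adjusted p was 0.69 in the first background and 0.11 in the average. Of the 626 genes of the second background 148 were higher and 478 lower, and under median-ratio scaling 212 were higher and 373 lower. The same scaling gave 262 higher and 235 lower in rIL-33 against Untreated cells. Of the 656 genes 152 (1.15% of all) were higher and 504 (3.81%) lower, and under median-ratio scaling 243 were higher and 358 lower.

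These counts can be read against the size of change that the libraries could resolve. For the averaged effect the 95% confidence interval of the log2 fold change lay within 2-fold in either direction for 98.9% of the 6813 genes averaging at least 10 TPM, and within 1.5-fold for 96.5% of them. For the 6402 genes below 10 TPM the interval lay within 2-fold for 84.4%. In rIL-33/rIL-17A against rIL-17A cells alone the shares within 2-fold were 97.5% of the genes at 10 TPM or more and 73.5% of those below. Fold changes are given on a log2(TPM + 1) scale throughout, so that those of genes near 1 TPM come out too small and their intervals too narrow. Over all tested genes the interval of the averaged effect lay within 2-fold for 91.9%. The share was 83.9% with 0.1 added in place of 1, 99.5% with 5 added, and 84.5% with voom on recovered reads. For genes outside the 2-fold shares the interval reaches beyond 2-fold. The same number of libraries gave 926 calls beside IL-13, described below.

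The receptor itself was at the limit of detection. Il1rl1 (chromosome 1), which encodes ST2, had 2, 2 and 1 reads in the rIL-33 libraries against 1, 1 and 0 in the Untreated ones. It had 2, 0 and 0 reads in the rIL-33/rIL-17A libraries against 2, 1 and 0 in the rIL-17A ones. That made 12 reads over the 12 libraries, with an exact Poisson 95% interval of 6.20 to 21 that covers counting error only, and 45 reads (32.8 to 60.2) over the 12 libraries with IL-13. The gene never reached 1 TPM and was not tested. Il33 had 7 reads over the 12 libraries, 0 of them in rIL-33 libraries.

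Il1rap, the accessory chain that ST2 shares with the IL-1 receptor, was detected in every library, with 2900 reads over the 12 libraries. It had 1.51, 1.67 and 1.67 TPM in rIL-33 cells against 1.49, 1.39 and 1.69 TPM in Untreated cells, and 1.38, 1.84 and 1.57 TPM in rIL-33/rIL-17A cells against 1.78, 1.39 and 1.72 TPM in rIL-17A cells. The libraries of the groups compared overlapped in both backgrounds. The adaptor gene Myd88 had 121, 127 and 141 TPM in rIL-33 cells against 126, 133 and 130 TPM in Untreated cells, and 125, 125 and 119 TPM in rIL-33/rIL-17A cells against 133, 130 and 130 TPM in rIL-17A cells. Its averaged log2 fold change was -0.04 (limma 95% interval -0.13 to 0.04).

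Of the 28 listed genes of the IL-33 receptor and its signalling, 25 were tested, and none was called or reached an unadjusted p under 0.05 in either background or in the average. Their log2 fold changes lay between -0.08 and 0.10 in rIL-33 against Untreated cells (median 0.01, against -0.004 over all 13215 genes). Those in rIL-33/rIL-17A against rIL-17A cells lay between -0.09 and 0.32 (median 0.02, against 0 over all genes). The highest value was that of Sigirr, which encodes an inhibitor of the receptor complex, at 2.32, 2.30 and 1.45 TPM in rIL-33/rIL-17A cells against 1.38, 1.64 and 1.19 TPM in rIL-17A cells. These groups overlapped. The kinase genes Irak1, Irak2 and Irak4, the ligase gene Traf6 and Map3k7, which encodes TAK1, had averaged log2 fold changes of 0.00, 0.00, -0.02, 0.08 and 0.04, in the order named.

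The NF-kB target genes leaned opposite ways in the 2 backgrounds, although none of them was called. The list held 30 inflammatory genes that NF-kB is known to induce, of which 20 passed the filter. In rIL-33 against Untreated cells 15 of the 20 had a log2 fold change above 0, with a median of 0.14 (all genes -0.004), and 5 were higher and 1 lower at an unadjusted p under 0.05, beside 1.46% and 2.20% of all genes. In rIL-33/rIL-17A against rIL-17A cells 2 of the 20 were above 0, with a median of -0.07 (all genes 0), and 0 were higher and 2 lower, beside 1.12% and 3.62% of all genes. Without the libraries numbered 30 or higher 14 of the 20 were above 0 in the first background and 9 in the second, with medians of 0.07 and -0.02. That left 2 rIL-33 libraries and only 1 rIL-33/rIL-17A library. Without Untreated replicate 1 and rIL-17A replicate 2 17 and 2 were above 0, with medians of 0.10 and -0.10.

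Tnf (mm10 chromosome 17, bases 35199381 to 35202007), which encodes the inflammatory cytokine TNF, had 172, 141 and 168 TPM in rIL-33 cells against 118, 137 and 127 TPM in Untreated cells. All rIL-33 libraries lay above all Untreated ones. In the second background it had 127, 127 and 109 TPM in rIL-33/rIL-17A cells against 119, 131 and 132 TPM in rIL-17A cells, and these groups overlapped. The log2 fold change was 0.33 in rIL-33 against Untreated cells (limma SE 0.08, unadjusted p = 0.000992, adjusted p = 0.785) and -0.07 in rIL-33/rIL-17A against rIL-17A cells (SE 0.08, adjusted p = 0.996). The second minus the first was -0.40 (unadjusted p = 0.00316, adjusted p = 1), so the difference between the backgrounds did not pass the threshold either.

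Il1b (chromosome 2, bases 129364570 to 129371139), which encodes the precursor of IL-1beta, had 8.10, 5.91 and 7.43 TPM in rIL-33 cells against 5.60, 4.59 and 5.83 TPM in Untreated cells. The lowest rIL-33 library was just above the highest Untreated one. It had 4.26, 4.78 and 4.31 TPM in rIL-33/rIL-17A cells against 4.86, 4.56 and 6.81 TPM in rIL-17A cells, with overlap. The antisense gene Il1bos overlaps it, and without a stated use of strand the reads of the pair cannot be told apart. Its log2 fold changes were 0.36 and -0.22, and the second minus the first was -0.58 (limma unadjusted p = 0.00334, adjusted p = 1). Clec4e, the gene of the C-type lectin receptor Mincle, had 267, 245 and 226 TPM in rIL-33 cells against 172, 206 and 205 TPM in Untreated cells, without overlap. In rIL-33/rIL-17A cells it had 219, 209 and 189 TPM, against 179, 191 and 269 TPM in rIL-17A cells, and here the highest value was an rIL-17A library.

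**Figure D1:**
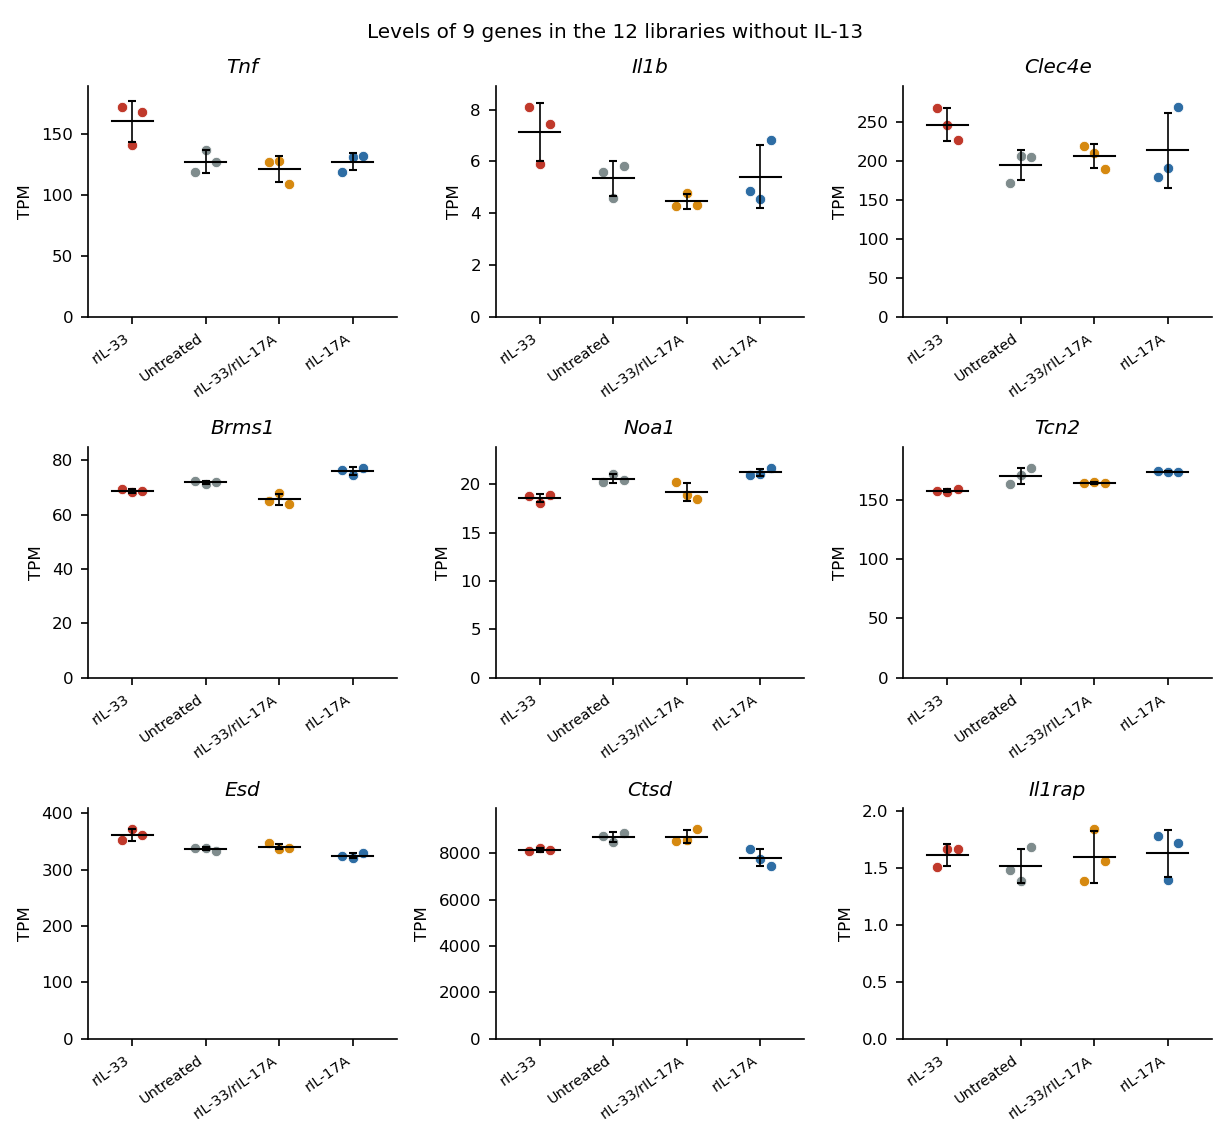
Levels in TPM of 9 genes in the 12 libraries, with 1 dot per library, the mean as a horizontal line and the SD as error bars, and each vertical axis starting at 0. The rIL-33 dots lie above the Untreated ones for Tnf, Il1b and Clec4e while the rIL-33/rIL-17A and rIL-17A dots overlap, the Brms1, Noa1 and Tcn2 dots are lower with IL-33 in both pairs and those of Esd higher, Ctsd goes opposite ways in the pairs, and Il1rap overlaps in both.

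Other NF-kB targets named here were chosen after their values were seen. Il1rn, which encodes the IL-1 receptor antagonist, averaged 148 ± 11.9 TPM in rIL-33 cells and 125 ± 13.1 TPM in Untreated cells, and 143 ± 6.97 TPM in rIL-33/rIL-17A cells and 156 ± 17.8 TPM in rIL-17A cells (SD, n = 3 each). Csf1, which encodes a macrophage growth factor, averaged 7.84 ± 0.471 TPM in rIL-33 cells and 5.88 ± 0.745 TPM in Untreated cells. Values of Csf1, and of Ccl3 which follows, are given in 1 background only and do not bear on the opposite leans. The chemokine gene Ccl3 averaged 94.6 ± 7.22 TPM in rIL-33/rIL-17A cells and 117 ± 17.5 TPM in rIL-17A cells, a log2 difference of -0.29 (limma unadjusted p = 0.0119, adjusted p = 0.979). Irf1, a transcription factor of the interferon and NF-kB responses, was the 1 target lower at an unadjusted p under 0.05 in the first background. It had 40.5, 40.1 and 41.3 TPM in rIL-33 cells against 43.3, 45.8 and 47.4 TPM in Untreated cells (log2 difference -0.16, limma adjusted p = 1), and 38.1, 38.3 and 40.4 TPM in rIL-33/rIL-17A cells against 42.1, 41.9 and 41.3 TPM in rIL-17A cells, without overlap in either background.

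The regulators of NF-kB had medians closer to 0 than its targets. Of 19 tested genes for NF-kB subunits and feedback inhibitors, none was called, and 1 was higher at an unadjusted p under 0.05 in rIL-33 against Untreated cells and none in the second background, with medians of 0.06 and -0.02. That gene was Nfkbie, which encodes the inhibitor IkB-epsilon, with 73.7, 69.4 and 86.5 TPM in rIL-33 cells against 58.8, 70.3 and 65.5 TPM in Untreated cells. The groups overlapped. Tnfaip3, the gene of the feedback inhibitor A20, had log2 fold changes of 0.21 and -0.04.

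**Figure D2:**
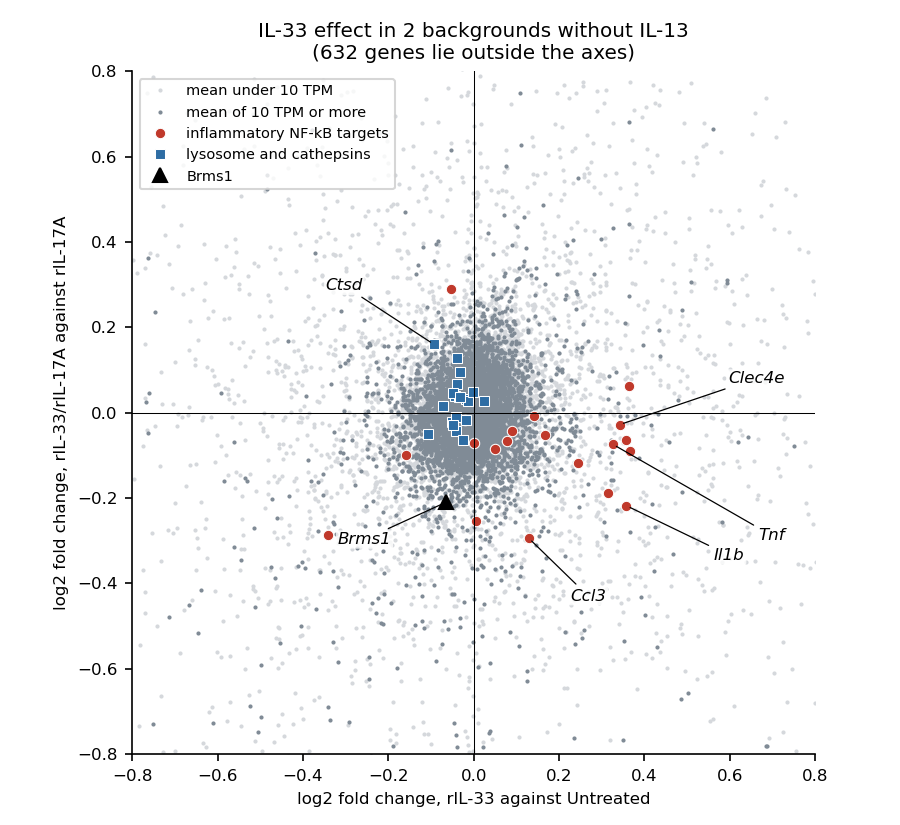
Log2 fold change of each tested gene in rIL-33 against Untreated cells (horizontal) and in rIL-33/rIL-17A against rIL-17A cells (vertical), with genes averaging at least 10 TPM in dark grey, those below in light grey, NF-kB targets as red dots, lysosomal genes as blue squares and Brms1 as a triangle; 632 genes lie outside the axes. Genes form 1 round cloud at the origin, most red dots lie to the right of 0 and below it, and the blue squares lie close to 0, with that of Ctsd the highest.

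Across genes the backgrounds shared little. The log2 fold changes of the 2 comparisons, which share no library, had a Pearson r of 0.06 and a Spearman rho of 0.09 over 13215 genes, and 54.0% of genes had the same sign. These genes are not independent replicates, and all 12 libraries were scaled to the same sum. Over the 6813 genes averaging at least 10 TPM the r was 0.14. With each of the 12 libraries left out in turn r ran between -0.00 and 0.10, lowest without Untreated replicate 1. The test of the difference between the backgrounds called 0 genes (0%), beside 466 whose unadjusted p was under 0.05 (3.53%; 1.22% higher and 2.31% lower), and the smallest adjusted p was 0.39.

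Few genes kept their groups apart in both backgrounds. The libraries of the groups compared did not overlap for 980 genes (7.42%) in the first background and 1332 genes (10.1%) in the second. For 78 genes (0.590%) they did not overlap in either, with the same direction in both, 13 higher (0.0984%) and 65 lower (0.492%), and for 46 genes (0.348%) the directions were opposite. Among the 13 higher ones, 1 had a group mean of 5 TPM or more and a settled symbol. This was Esd (chromosome 14), the gene of S-formylglutathione hydrolase, with 352, 372 and 361 TPM in rIL-33 cells against 339, 338 and 334 TPM in Untreated cells. It had 347, 337 and 339 TPM in rIL-33/rIL-17A cells against 324, 321 and 330 TPM in rIL-17A cells, an averaged log2 fold change of 0.09 (limma adjusted p = 0.914).

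Brms1 (chromosome 19, bases 5041354 to 5049917), which encodes a subunit of the SIN3 histone deacetylase complexes, was the 1 called gene. It had 65.0, 68.0 and 63.8 TPM in rIL-33/rIL-17A cells against 76.3, 74.5 and 77.2 TPM in rIL-17A cells, with no overlap, and fell by 0.21 on the log2 scale (limma SE 0.03, adjusted p = 0.043). In rIL-33 cells it had 69.5, 68.3 and 68.5 TPM against 72.5, 71.4 and 72.0 TPM in Untreated cells, again with no overlap, and a log2 difference of -0.07 (adjusted p = 1). Averaged, the difference was -0.14 (adjusted p = 0.115). The call was lost under 11 of 17 alternatives, where its adjusted p was 0.111 to 0.938, among them the fit of the 12 libraries alone (0.22). Brms1 overlaps a second annotated gene, AC124502.3, on the same strand, and reads of that overlap could be split between them.

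Noa1, which encodes a GTPase of mitochondrial ribosome assembly, had 18.8, 18.1 and 18.9 TPM in rIL-33 cells against 20.3, 21.1 and 20.4 TPM in Untreated cells. It had 20.2, 18.9 and 18.5 TPM in rIL-33/rIL-17A cells against 21, 21.1 and 21.7 TPM in rIL-17A cells. All 6 libraries with IL-33 lay below the libraries without it in their own background, which was a condition of naming the gene. The averaged log2 fold change was -0.14 (limma adjusted p = 0.439). Tcn2, the gene of the vitamin B12 carrier transcobalamin 2, had 158, 157 and 159 TPM in rIL-33 cells against 164, 171 and 177 TPM in Untreated cells, and 164, 166 and 164 TPM in rIL-33/rIL-17A cells against 175, 174 and 174 TPM in rIL-17A cells (averaged log2 fold change -0.09, adjusted p = 0.675).

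Other genes with lower values in both backgrounds were named by the size of their p among genes without overlap in either background. That separation was therefore a condition of naming them. Nkiras1, which encodes a small GTPase-like protein that binds and protects NF-kB inhibitors, had 4.53, 5.16 and 4.55 TPM in rIL-33 cells against 7.01, 5.41 and 6.12 TPM in Untreated cells. It had 4.22, 5.31 and 4.26 TPM in rIL-33/rIL-17A cells against 6.08, 5.58 and 5.86 TPM in rIL-17A cells, with no overlap in either and an averaged log2 fold change of -0.31 (limma adjusted p = 0.894). Card9, the adaptor that carries signals of C-type lectin receptors to NF-kB, had 53.6, 56.4 and 58.4 TPM in rIL-33 cells against 65.1, 61.1 and 61.5 TPM in Untreated cells, and 59.5, 57.6 and 57.0 TPM in rIL-33/rIL-17A cells against 68.1, 61.2 and 62.7 TPM in rIL-17A cells. Spg21, Tgds, Coq9, Rnf5 and Selplg were lower in the same way, with averaged log2 fold changes between -0.22 and -0.07, and none was called. On the chromosome Nkiras1 overlaps Rpl15 and Ube2e1, and Card9, Spg21, Tgds, Coq9 and Rnf5 each overlap another annotated gene. Without a stated use of strand, the reads of these genes are uncertain.

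Genes of lysosomes also leaned opposite ways. Of 20 listed and tested lysosomal genes, 0 were higher and 3 lower at an unadjusted p under 0.05 in rIL-33 against Untreated cells (beside 1.46% and 2.20% of all genes), with a median log2 fold change of -0.04. With IL-17A in both groups, 5 were higher and 0 lower (beside 1.12% and 3.62% of all genes), with a median of 0.03, and none was called in either. Under median-ratio scaling 0 were lower in the first and 2 higher in the second. Without the libraries numbered 30 or higher the medians were -0.05 and 0.01. That left 2 rIL-33 libraries and only 1 rIL-33/rIL-17A library. The protease gene Ctsd (chromosome 7, bases 142375911 to 142388038), which encodes cathepsin D, had 8086, 8257 and 8155 TPM in rIL-33 cells against 8774, 8485 and 8880 TPM in Untreated cells. It had 8529, 8585 and 9059 TPM in rIL-33/rIL-17A cells against 8202, 7756 and 7480 TPM in rIL-17A cells. Neither pair of groups overlapped, and the directions were opposite. The separation with IL-17A in both groups was a condition of naming the gene. The gene overlaps Gm49369 on the same strand.

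The log2 fold changes of Ctsd were -0.09 and 0.16, and the second minus the first was 0.25 (limma unadjusted p = 2.97e-05, adjusted p = 0.392). Without rIL-17A replicate 1 this difference was called (adjusted p = 0.045). The other genes with the smallest p on the higher side in the second background were Ftl1 and Fth1, which encode the ferritin chains, and the lysosomal genes Ctsb, Psap and Ctsk. Ftl1 had 27830, 27290 and 28580 TPM in rIL-33/rIL-17A cells against 24920, 24610 and 25120 TPM in rIL-17A cells. Fth1 had 12940, 12600 and 13210 TPM in rIL-33/rIL-17A cells against 11640, 11600 and 11590 TPM in rIL-17A cells. Both ferritin genes have near-identical pseudogenes, so their reads are uncertain. These are very abundant genes, and the share of reads in the 10 most abundant genes was also higher in rIL-33/rIL-17A than in rIL-17A libraries, as given above. That share can include reads of these same genes, so it is not a separate observation. With median-ratio scaling the second-background values of Ctsd, Ftl1 and Fth1 were 0.16, 0.16 and 0.15, and with voom 0.13, 0.14 and 0.13.

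On the lower side of the second background stood Npm3, which encodes a histone chaperone of the nucleolus, the mitochondrial genes Coa4 and Mrps30, Mrto4, a ribosome assembly gene, and Mcee, an enzyme gene of propionate breakdown. Npm3 had 131, 128 and 126 TPM in rIL-33/rIL-17A cells against 161, 154 and 159 TPM in rIL-17A cells, and Coa4 61.3, 55.6 and 59.4 TPM in rIL-33/rIL-17A cells against 77.1, 73.4 and 76.9 TPM in rIL-17A cells. Neither gene's groups overlapped, which was a condition of naming them. Their log2 fold changes were -0.30 and -0.36 (limma adjusted p = 0.29 and 0.447). In the first background Npm3 had 144, 143 and 139 TPM in rIL-33 cells against 154, 129 and 137 TPM in Untreated cells, with overlap. On the chromosome Npm3 and Mrps30 each overlap another annotated gene, which makes their reads uncertain.

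In rIL-33 against Untreated cells, apart from Tnf, the smallest p on the higher side belonged to Hdhd3, Ass1, Tomm40, Rilp and Dok2. Ass1, the argininosuccinate synthase gene of arginine synthesis, had 38.5, 35.7 and 36.4 TPM in rIL-33 cells against 30.8, 31.8 and 30.9 TPM in Untreated cells (log2 difference 0.24, limma adjusted p = 0.785). In the second background it had 36.5, 33.2 and 31.3 TPM in rIL-33/rIL-17A cells against 32.5, 31.6 and 37.2 TPM in rIL-17A cells, with overlap. On the lower side Tmem140, a membrane protein gene, had 105, 106 and 102 TPM in rIL-33 cells against 126, 120 and 115 TPM in Untreated cells (log2 difference -0.20, limma adjusted p = 0.691). Kti12, a gene of tRNA modification, had 140, 147 and 149 TPM in rIL-33 cells against 153, 171 and 178 TPM in Untreated cells. With IL-17A it had 164, 171 and 163 TPM in rIL-33/rIL-17A cells against 150, 148 and 149 TPM in rIL-17A cells, so that the groups did not overlap in either background and the directions were opposite. The separation of Kti12 in rIL-33 against Untreated cells was a condition of naming it. Kti12 overlaps 2 annotated genes and Tmem140 overlaps Cyren, which makes their reads uncertain.

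**Figure D3:**
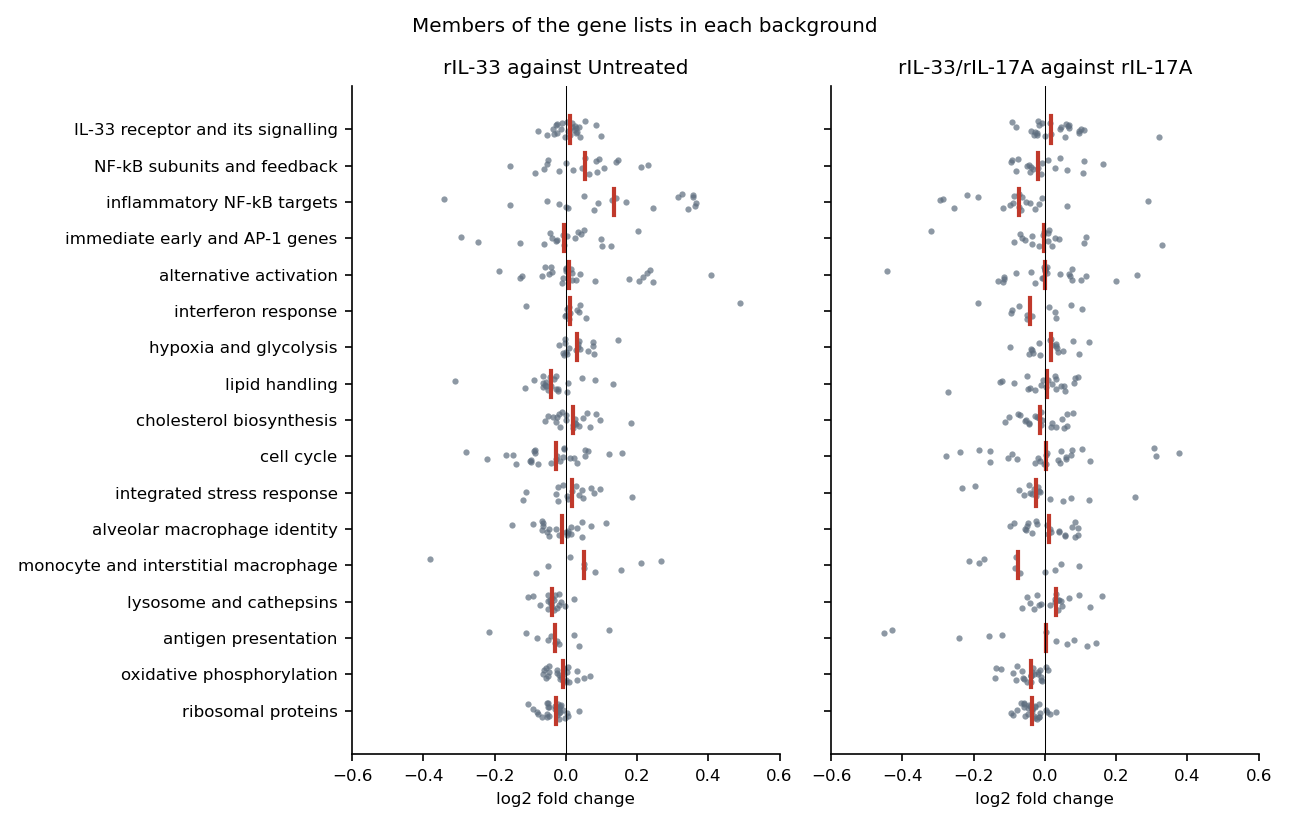
Log2 fold change of each tested member of 17 gene lists in rIL-33 against Untreated cells (left) and in rIL-33/rIL-17A against rIL-17A cells (right), with 1 dot per gene and the list median as a red bar. The medians lie within 0.08 of 0 except for inflammatory NF-kB targets on the left (0.14).

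The remaining lists with more than 1 tested gene had medians within 0.08 of 0 in both backgrounds. Of 26 tested genes of alternative activation, the state that IL-4 and IL-13 induce, none was called, and 2 were higher at an unadjusted p under 0.05 in the first background (1.46% of all genes), 1 in the second (1.12%) and none lower in either, with medians of 0.01 and 0.00. Chil3, the gene of Ym1, a chitinase-like protein of such macrophages, had 364, 372 and 364 TPM in rIL-33 cells against 378, 383 and 384 TPM in Untreated cells, without overlap. It had 370, 369 and 372 TPM in rIL-33/rIL-17A cells against 372, 371 and 370 TPM in rIL-17A cells, with overlap, and the 95% interval of its averaged log2 fold change was -0.09 to 0.03. Arg1 had 5 reads over the 12 libraries, Ccl17 had 1, and Ccl24 and Retnla had 0, for which an exact Poisson 95% interval reaches 3.69 reads.

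None of 27 tested cell cycle genes reached an unadjusted p under 0.05 in either background (medians -0.03 and 0.00). The proliferation marker Mki67 had 1.36, 1.29 and 1.47 TPM in rIL-33 cells against 1.23, 1.79 and 1.18 TPM in Untreated cells, and 1.72, 1.96 and 2.0 TPM in rIL-33/rIL-17A cells against 1.36, 1.04 and 1.65 TPM in rIL-17A cells. The 22 cholesterol synthesis genes likewise held none at an unadjusted p under 0.05 (medians 0.02 and -0.01). Of 22 lipid handling genes, none was called. At an unadjusted p under 0.05, 2 were lower in the first background (2.20% of all genes), and in the second 1 was higher and 1 lower (1.12% and 3.62% of all genes). The lipoprotein gene Apoe had 201, 170 and 215 TPM in rIL-33 cells against 255, 261 and 212 TPM in Untreated cells, with overlap. Of 11 antigen presentation genes, none was called and 3 were lower at an unadjusted p under 0.05 in the second background (3.62% of all genes), among them the class II gene H2-Eb1, at 2.21, 2.91 and 2.41 TPM in rIL-33/rIL-17A cells against 3.91, 3.34 and 4.14 TPM in rIL-17A cells, without overlap.

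The lists of immediate early and AP-1 genes (19 tested, medians -0.01 and -0.00), hypoxia and glycolysis (19, 0.03 and 0.02), the integrated stress response (17, 0.02 and -0.02), interferon response (12, 0.01 and -0.04), oxidative phosphorylation (25, -0.01 and -0.04) and ribosomal proteins (28, -0.03 and -0.04) had no called member in either background. The same held for genes of alveolar macrophage identity (22, -0.01 and 0.01) and of monocytes and interstitial macrophages (10, 0.05 and -0.08). The medians of that last list were farther from 0 than those of the lysosomal genes. Of the 28 ribosomal protein genes 3 were above 0 in the first background and 4 in the second, with 2 lower in each at an unadjusted p under 0.05 (beside 2.20% and 3.62% of all genes). Of the 25 oxidative phosphorylation genes 9 and 2 were above 0. Of 13 genes of the type 2 cytokine programme of IL-33-responsive lymphoid and mast cells, 1 was tested, Lif, which encodes a cytokine of the IL-6 family, with log2 fold changes of -0.09 and 0.14. Il13 and Il5 were not analysed here.

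The effect without IL-13 was then set beside that with it. Averaged over rIL-33/rIL-13 against rIL-13 and over rIL-33/rIL-13/rIL-17A against rIL-13/rIL-17A, 926 genes were called (7.01%), 334 higher and 592 lower, or 520 higher and 589 lower under median-ratio scaling. The group means of this effect share no library with those of the effect without IL-13, but the estimate of spread is common to both. The 334 genes had a median log2 fold change of -0.03 without IL-13 and 0.18 beside it, and 83 of them (24.9%, against 48.6% of all genes) were above 0 without IL-13. The 592 genes had a median of 0.01 without IL-13 and -0.28 beside it, and 252 of them (42.6%, against 51.4% of all genes) were below 0 without IL-13. None of either set was called without IL-13, where 0 of all 13215 genes were called. For the genes that rose beside IL-13 the share was 17.7% to 27.8% over 10 alternatives. With a term for the libraries numbered 30 or higher it was 24%, close to the 26.9% of all genes, and without Untreated replicate 1 and rIL-17A replicate 2 it was 23.7%, against 28.9% of all genes. For the genes that fell the share was 41.4% to 62.2%, highest with that term, where 73.1% of all genes were below 0.

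The difference between the effects, beside IL-13 minus without it, was called for 472 genes (3.57%), 193 higher (1.46%) and 279 lower (2.11%). Il1b had 30.9, 36.4 and 33 TPM in rIL-33/rIL-13 cells against 72.6, 59.9 and 65.6 TPM in rIL-13 cells, and 31.6, 31.3 and 27.9 TPM in rIL-33/rIL-13/rIL-17A cells against 72.0, 68.1 and 64.3 TPM in rIL-13/rIL-17A cells. Its averaged log2 fold change was 0.07 without IL-13 and -1.05 beside it, a difference of -1.12 (limma adjusted p = 1.04e-05). Tnf was not called beside IL-13, where its averaged log2 fold change was -0.16. Of the 20 tested NF-kB targets 0 were called without IL-13 (0% of all genes), and beside it 1 was called higher and 7 lower (beside 2.53% and 4.48% of all genes).

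**Figure D4:**
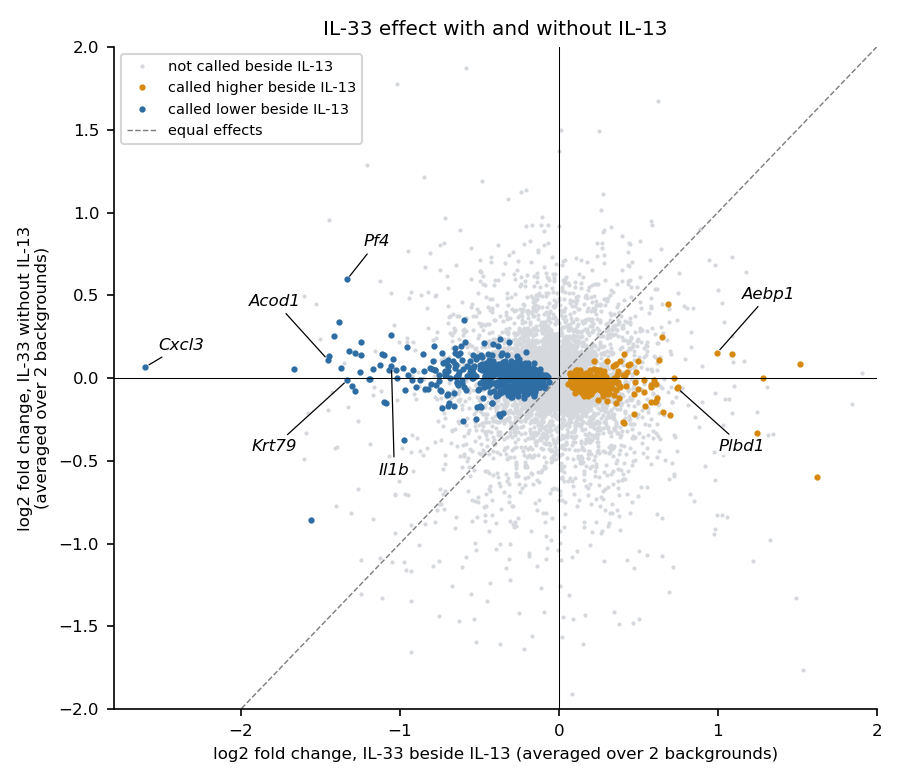
Averaged log2 fold change with IL-33 in cells with IL-13 (horizontal) and without IL-13 (vertical) for each tested gene, with genes called beside IL-13 in orange (higher, 334) and blue (lower, 592) and equal effects as a dashed line. The called genes lie along the horizontal line at 0 and not along the dashed line.

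Among the named genes Cxcl3 had the largest drop beside IL-13. The chemokine genes Cxcl1, Cxcl2 and Cxcl3, whose products attract neutrophils, lie in the same region of chromosome 5. They are shown with their promoters because these 3 hold the same form of the NF-kB consensus. The lines below give the 120 bases before the start of each gene, on the + strand of GRCm38.p6, from RefSeq, at chr5:90891125-90891244 for Cxcl1, chr5:90903779-90903898 for Cxcl2 and chr5:90785981-90786100 for Cxcl3. Capitals mark the motif GGGAATTTCC, the form of the consensus that a search of the 3 promoters found in all of them.
Cxcl1: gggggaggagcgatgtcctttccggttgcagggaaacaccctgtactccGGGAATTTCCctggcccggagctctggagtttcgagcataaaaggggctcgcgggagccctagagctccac
Cxcl2: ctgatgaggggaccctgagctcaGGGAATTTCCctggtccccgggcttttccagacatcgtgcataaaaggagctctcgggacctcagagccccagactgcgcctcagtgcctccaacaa
Cxcl3: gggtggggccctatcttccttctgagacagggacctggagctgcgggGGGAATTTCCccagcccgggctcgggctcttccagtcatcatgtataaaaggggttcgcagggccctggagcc
The motif starts 71, 97 and 73 bases before the start of Cxcl1, Cxcl2 and Cxcl3. Searched on both strands from 250 bases before to 50 after the start, it was in 29 of 32851 promoters (0.0883%). It was in 3 of the 21 NF-kB target genes with a promoter in the table, which are the 3 shown. The motif was chosen from these 3, so that count was fixed in advance and says nothing about the list. It was also in 1 of 17 genes for NF-kB subunits and feedback, Nfkbia. A match is a description of the letters and not of binding.

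Without IL-13, these chemokine genes showed no separation with IL-33. Cxcl1 had 23.6, 13 and 20.3 TPM in rIL-33 cells against 11.8, 14.5 and 18.3 TPM in Untreated cells, and 12.2, 12 and 12.1 TPM in rIL-33/rIL-17A cells against 10.6, 16 and 15.9 TPM in rIL-17A cells. Cxcl2 had 52.9, 31.7 and 44.9 TPM in rIL-33 cells against 24.9, 35.3 and 40.0 TPM in Untreated cells, and 38.1, 22.8 and 21.4 TPM in rIL-33/rIL-17A cells against 20.4, 28.2 and 37.0 TPM in rIL-17A cells. Cxcl3 had 7.75, 5.08 and 6.70 TPM in rIL-33 cells against 4.81, 7.51 and 5.19 TPM in Untreated cells, and 6.82, 6.73 and 3.89 TPM in rIL-33/rIL-17A cells against 7.89, 3.73 and 6.13 TPM in rIL-17A cells. The groups overlapped for all 3 genes in both backgrounds.

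Beside IL-13, Cxcl3 had 26.5, 27.9 and 25.1 TPM in rIL-33/rIL-13 cells against 161, 139 and 142 TPM in rIL-13 cells, and 24.3, 23.5 and 21.5 TPM in rIL-33/rIL-13/rIL-17A cells against 151, 154 and 188 TPM in rIL-13/rIL-17A cells. Its averaged log2 fold change was 0.07 without IL-13 (95% interval -0.24 to 0.37) and -2.60 beside it (limma adjusted p = 1.4e-09), and the difference was called (-2.67, adjusted p = 2.36e-07). The averaged log2 fold changes of Cxcl1 and Cxcl2 were 0.06 and 0.15 without IL-13, and -0.81 and -0.85 beside it (adjusted p = 0.00539 and 0.00254). The difference was called for Cxcl2 (adjusted p = 0.0201, and 0.0605 without Untreated replicate 1 and rIL-17A replicate 2) and not for Cxcl1 (adjusted p = 0.0551).

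**Figure D5:**
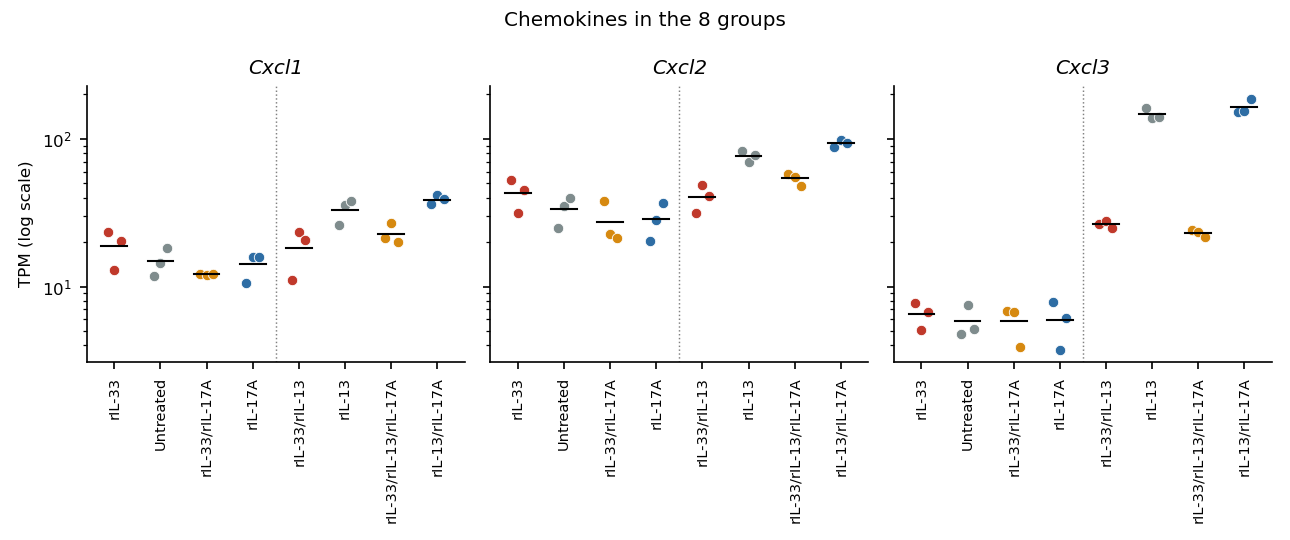
Levels of Cxcl1, Cxcl2 and Cxcl3 in TPM on a log axis in the 8 groups, with 1 dot per library, a line for the mean, and a dotted line between the groups without IL-13 (left) and with it (right). Left of the dotted line the groups of each pair overlap, and right of it the groups with IL-33 lie below their partners, farthest for Cxcl3.

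Other genes named for their change beside IL-13 showed little without it. Acod1, which makes the immunometabolite itaconate, had 23, 18.4 and 22.1 TPM in rIL-33 cells against 15.9, 18.5 and 20.1 TPM in Untreated cells. It had 21, 16.9 and 14.9 TPM in rIL-33/rIL-17A cells against 13.8, 16.3 and 22.8 TPM in rIL-17A cells. Both pairs overlapped, and the averaged log2 fold change was 0.11 without IL-13 and -1.45 beside it. Krt79, a keratin gene expressed by alveolar macrophages, had 3.03 to 4.47 TPM in all 12 libraries without IL-13, and its averaged log2 fold change was -0.01 there and -1.33 beside IL-13.

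Aebp1, which encodes a secreted carboxypeptidase-like protein, had 43.5, 43.9 and 48.4 TPM in rIL-33 cells against 36, 39.5 and 40.1 TPM in Untreated cells, without overlap. It had 44.3, 46.5 and 42.8 TPM in rIL-33/rIL-17A cells against 39.5, 39.0 and 48.6 TPM in rIL-17A cells, with overlap, and an averaged log2 fold change of 0.15 without IL-13 (limma adjusted p = 0.952) and 1.0 beside it (adjusted p = 4.4e-09). Plbd1, which encodes a phospholipase B-like protein, had log2 fold changes of -0.06 in both backgrounds without IL-13 and an averaged 0.75 beside it. Tcn2 and Esd, which leaned the same way in both backgrounds without IL-13, were called in the opposite direction beside it, with averaged log2 fold changes of -0.09 without and 0.17 beside for Tcn2 and of 0.09 without and -0.37 beside for Esd.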

How the data were processed

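RNA of the 24 macrophage libraries was sequenced on a NovaSeq6000. The submitters' processing notes name STAR and the build mm10; the tool that counted reads, and its use of strand, are not stated there. The authors deposited 1 table of TPM values per library, scaled, per the file headers, by gene span with introns, so levels compare libraries for 1 gene only. Of values of up to 20 reads, 90.12% to 91.39% were whole multiples of 1 read within 0.05 reads, which gave recovered reads.

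Groups were taken from the treatment labels. The main test was limma-trend (limma 3.58.1, R 4.3.3) on log2(TPM + 1), with 8 group means over 24 libraries, 16 residual degrees of freedom, no covariate and Benjamini-Hochberg adjusted p under 0.05 over 13215 genes. Tables were made with Python 3.11.15, pandas 2.3.3 and scipy 1.17.1, and the fits were tested on simulated data. Libraries of a group differed by more than sampling noise (index of dispersion 1.48 to 7.30 for the 12 pairs), yet p-values reflect only how far these libraries spread, and that spread may be technical. Among the libraries with IL-13, the pairs with rIL-33/rIL-13/rIL-17A replicate 2 had an index of 16.59 and 21.74. That library enters the shared estimate of spread. Without it limma called 371 genes higher and 521 lower beside IL-13, against 334 and 592. Alternatives were other pseudocounts (0.1 and 5), filters and scalings, voom on recovered reads, robust variance estimates, the libraries numbered 30 or higher left out or given a term, a fit of the 12 libraries alone and each library left out in turn.

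Named genes were the called ones, else those with the smallest p among genes at 5 TPM or more whose groups did not overlap, up to 4 members per list by p, all members of the IL-33 signalling list, a fixed set of cytokine genes, and the 8 largest changes in each direction beside IL-13. The comparisons, the 18 gene lists and 11 marker lists were chosen with earlier results of these data known. Gene coordinates are 1-based on mm10, with 1 base subtracted from the deposited stop. Promoters are from the RefSeq table of GRCm38.p6. A gene chosen by these rules is not reported here.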

Additional observations from a re-analysis of the deposited data

Results flagged for a closer look

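For 40 of the 161 named genes, the effect of IL-33 differed between cells with and without IL-13 by the test of the difference itself (limma, adjusted over 13215 genes). Of these, 10 were named for their change beside IL-13. Values are the log2 effect beside IL-13 minus the one without it. Over all 13215 genes 472 were called (3.57%), and many of the named genes were picked by their p or size of change. The test shares the libraries by which the 10 genes were named. It equally shares the libraries without IL-13, by whose p many of the other genes were named, singly or from the lists. Their calls are therefore not independent of that choice. Among genes named for their change beside IL-13 the difference was -2.67 for Cxcl3, -1.93 for Pf4, which encodes platelet factor 4, -1.72 for Gm21399, -1.67 for H2-M2, -1.56 for Acod1, -1.49 for Eef1a2, -1.32 for Krt79, 0.84 for Aebp1, 0.81 for Plbd1 and 0.81 for Hsd17b1, which encodes a steroid dehydrogenase. None of these 10 was called without IL-13, where 0 of 13215 genes were called.

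Among genes named for their small p without IL-13 the difference was 0.17 for Brms1, -0.64 for Ass1, -0.36 for Dok2, 0.26 for Tcn2, -0.46 for Esd, 0.14 for Ctsd, 0.23 for Npm3, 0.26 for Mrto4, 0.45 for Nkiras1 and 0.14 for Rnf5. Of the cytokine and alternative activation genes it was -1.12 for Il1b, -1.0 for Cxcl2, -0.21 for Chil3, -0.22 for Mmp12, -0.12 for Clec7a and 1.28 for Retnla, which had 0 reads in the 12 libraries without IL-13, so that its value depends on the pseudocount. The cell cycle genes Mki67, Plk1 and Mcm6 had -1.43, -0.83 and -0.54, and the hypoxia and glycolysis genes Slc2a1 and Eno1 had -0.33 and -0.24. The stress response genes Slc7a11, Ddit3 and Atf4 had -0.81, 0.35 and 0.11, and the lysosomal gene Hexa 0.21. The remaining ones were Apoe at 0.69, Csf1r at -0.4, Cd74 at 0.29, Cxcr2 at 0.86 and Ikbkg at -0.3.

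The call held in every alternative for 22 of the 40 genes. Gm21399 lost it in 22 of 34 alternatives and Atf4 in 17. The alternative without the libraries numbered 30 or higher kept only 1 rIL-33/rIL-17A library. Without the libraries numbered 30 or higher it was lost for 14 genes, with adjusted p between 0.0543 and 0.2: Pf4 (0.0544), Cxcr2, Ddit3, Eno1, Mcm6, Cd74, Ctsd, Ikbkg, Nkiras1, Npm3, Retnla, Rnf5, Atf4 and Gm21399. Under median-ratio scaling it was lost for Atf4, Cd74, Chil3, Clec7a, Ctsd, Mmp12, Npm3 and Rnf5 (adjusted p between 0.0672 and 0.279), and for Cxcl2 without Untreated replicate 1 and rIL-17A replicate 2 together (0.0605). Pf4 had 5.29, 7.02 and 6.18 TPM in rIL-33 cells against 6.64, 5.12 and 2.13 TPM in Untreated cells, and 4.37, 5.17 and 5.97 TPM in rIL-33/rIL-17A cells against 0.909, 3.24 and 4.91 TPM in rIL-17A cells, with overlap in both.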

How the results depend on the processing

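No paired analysis was possible because the labels give no replicate numbers that run across groups. In rIL-33 against Untreated cells 0 genes were called in all 17 alternatives. In rIL-33/rIL-17A against rIL-17A cells the 1 call, Brms1, became 0 under median-ratio scaling, voom, a term for the libraries numbered 30 or higher, and without Untreated replicate 1 and rIL-17A replicate 2 together (added after seeing the data), and the count was 0 to 1 with each library left out. Where the count stayed at 1, it was another gene in the fit of the 12 libraries alone (Rpl31-ps12, Brms1 at limma adjusted p = 0.22) and without rIL-17A replicate 1 (Atp6v0c-ps2, Brms1 at 0.125). The fit without the libraries numbered 30 or higher kept only 1 rIL-33/rIL-17A library. Its calls in that background and in the difference between backgrounds are therefore not given. In that fit the log2 fold change of Brms1 was -0.22. The log2 fold change of Brms1 stayed between -0.24 and -0.19. The averaged effect had 1 call with no filter on low values (Brms1) and in the fit of the 12 libraries alone (Rpl31-ps12), against 0, and 0 to 1 with each library left out (Apc-ps1 without rIL-17A replicate 1). The difference between backgrounds had 1 call in the fit of the 12 libraries alone (Rpl31-ps12), against 0, and 0 to 1 with each library left out (Ctsd without rIL-17A replicate 1). The difference between the effects with and without IL-13 had 289 calls without the libraries numbered 30 or higher, against 472, and 388 to 553 with each library left out. The correlation between backgrounds was 0.141 for genes of 10 TPM or more, 0.029 without the libraries numbered 30 or higher, 0.147 with a term for them, 0.008 without Untreated replicate 1 and rIL-17A replicate 2 together, and -0.003 to 0.095 with each library left out. The causes were not tested. In the averaged effect the median SE (log2) was 0.108 for genes averaging under 10 TPM and 0.052 for the others.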
